A study of Sus scrofa with 12 samples.

Results

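The m6A marks of 8 genes of muscle calcium handling were followed through the peak lists of pig back muscle. They are the calcium pumps of the sarcoplasmic reticulum ATP2A1 (SERCA1) and ATP2A2 (SERCA2), the pump inhibitors SLN (sarcolipin) and PLN (phospholamban), the calcium-binding proteins CASQ1 (calsequestrin 1) and PVALB (parvalbumin), and the calmodulin-dependent kinases CAMK2D and CAMK2G. They were chosen by gene symbol: every peak that the deposited lists assign to 1 of these 8 genes was taken, which gave 37 of 13487 peaks, on 8 of the 2159 genes with a peak. The muscle is the longissimus dorsi of 5-day-old pigs, untreated as far as the labels say, of 2 breeds, Large White and Ningxiang. N6-methyladenosine (m6A), a methyl mark on adenosines of mRNA, was enriched with an antibody from fragmented mRNA and sequenced beside unenriched input (MeRIP-seq). Each breed has 3 replicates, and each replicate has 1 immunoprecipitated sample, 1 input sample and 1 list of peaks. The labels number the replicates without saying that each came from its own pig. Any p-value here therefore sets a difference only against the scatter among these samples, and that scatter could be technical.

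When a muscle fibre is excited, calcium leaves the sarcoplasmic reticulum through the ryanodine receptor and starts contraction. The SERCA pumps return it to the store and so end the contraction. ATP2A1 is the pump of fast fibres and makes an adult and a neonatal form that differ in the use of an exon near the 3′ end, while ATP2A2 is the pump of slow fibres, heart and many other cells. SLN and PLN are small membrane peptides that bind the pumps and lower their activity. CASQ1 holds calcium inside the store, PVALB buffers it in the cytosol of fast fibres, and the CAMK2 kinases are switched on by calcium-bound calmodulin.

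The lists held 2373, 2214 and 2533 peaks in Large White replicates 1, 2 and 3, and 2034, 2111 and 2222 in Ningxiang replicates 1, 2 and 3. The lists carry no read numbers and the depth is unknown. A gene with no listed peak therefore lay below the authors' calling limit and is not shown to lack m6A. Of 12 markers of skeletal muscle fibres, 9 have a curated RefSeq transcript that could carry a peak, and 7 had a peak in all 6 lists, among them CKM, DES and the fast myosin genes MYH1, MYH2 and MYH4. ACTA1, the skeletal actin, has such a transcript and had no peak. Markers of other cells were also listed: all 6 lists held a peak on DCN (1 of 4 fibroblast markers), FABP4 (1 of 4 adipocyte markers), PECAM1 and CDH5 (2 of 3 endothelial markers), CD14 (1 of 3 leukocyte markers) and TNNT2 (1 of 5 cardiac markers). Of these, DCN, FABP4 and CDH5 had more exonic bases under peaks in every Large White list than in any Ningxiang list, as did 7.78% of all genes, each with an exact permutation p of 0.1 (n = 3 per breed, adjusted p = 0.935). DCN had 239, 239 and 299 bases in Large White and 209 in each Ningxiang list. FABP4 had 291, 262 and 262 in Large White and 175, 175 and 204 in Ningxiang. CDH5 had 2095, 2065 and 1947 in Large White and 1406, 1349 and 1677 in Ningxiang. Other markers of the same cells overlapped between breeds, among them COL1A2 and PECAM1, and ADIPOQ averaged 196 bases in Large White and 254.7 in Ningxiang. A peak is not a level of expression, in whole tissue fewer cells of a type and less RNA per cell cannot be told apart, and the part of these markers in the results was not tested.

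Large White lists held a peak on 7, 4 and 8 of the 8 genes, and Ningxiang lists on 5, 6 and 5. The mean was 6.33 ± 2.08 genes in Large White and 5.33 ± 0.577 in Ningxiang (SD, n = 3 lists each), a difference of 1 gene that is smaller than the Large White spread. Of all genes with a peak in any list, an average of 67.9% had one in a Large White list and 63.3% in a Ningxiang list, a lean in the same direction. ATP2A1, SLN and CAMK2G had a peak in all 6 lists, or 37.5% of the 8 genes, against 35.7% of all genes with a peak (771 of 2159). CAMK2D was in 5 lists, ATP2A2 and PLN in 4 each, CASQ1 in 3 and PVALB in 1. None of the 8 had peaks in 3 of 3 lists of 1 breed and 0 of 3 of the other, a pattern that 1.34% of all genes showed for Large White and 0.741% for Ningxiang. Even that pattern would give a gene no less than p = 0.1 in Fisher's exact test (two-sided).

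**Figure D1:**
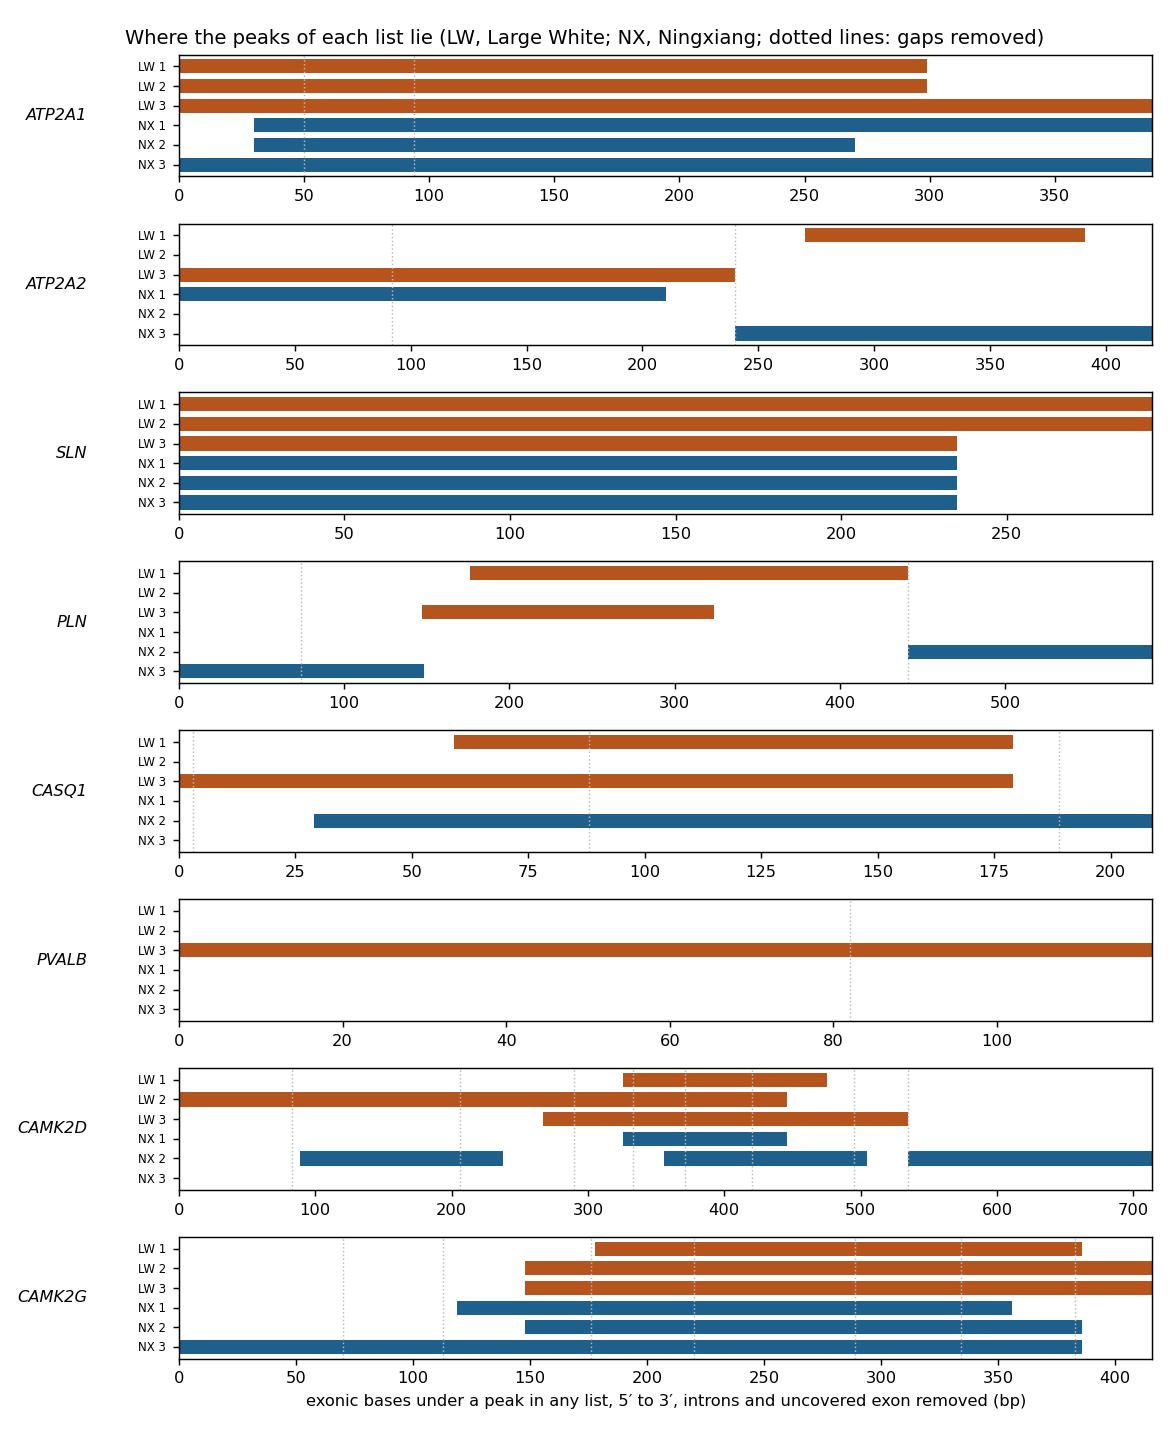
Exonic sequence under the peaks of the 8 genes, 1 panel per gene and 1 row per list, with Large White (LW) rows in brown above Ningxiang (NX) rows in blue. The horizontal axis is exonic bases from 5′ to 3′ with introns and uncovered exon removed, on a scale of its own in each panel. ATP2A1, SLN and CAMK2G have bars in all 6 rows that share a common stretch. In ATP2A2 and PLN no stretch has bars in more than 2 rows.

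ATP2A1 carried 1 peak at its 3′ end in every list. The peak lay on chromosome 3 (susScr11), within 18567240 to 18568312, where 18568312 is the last base of the plus-strand gene, and the deposited annotation, which gives each peak a single class, calls it 3′ untranslated region. It joined 3 exonic blocks across 2 introns. The middle block, 44 bases from 18567549 to 18567592, was the same in all 6 lists. The last block began at 18568018 in all of them. These edges lie where blocks join across introns, so they were fixed by exon borders once a peak crossed them. The annotation gives no exon number here, and the lists cannot tell the adult from the neonatal transcript form.

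Exonic bases under the ATP2A1 peak numbered 299, 299 and 389 in Large White and 359, 240 and 389 in Ningxiang. Values of the breeds overlapped, and 1 list of each breed had the highest value, 389. The mean was 329 ± 52.0 bases in Large White and 329.3 ± 78.8 in Ningxiang (SD, n = 3 each; exact two-sided permutation p = 1). All 6 lists shared 240 of the 389 bases covered in any list, or 61.7%. The remaining differences lay at the edges: the first 30 bases were covered in 3 of 3 Large White lists and in Ningxiang replicate 3, 29 bases near the 3′ end in all lists but Ningxiang replicate 2, and the last 90 bases in Large White replicate 3 and Ningxiang replicates 1 and 3.

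By p-value the ATP2A1 peak was among the strongest of each list, and by fold it was not. It ranked 12, 9 and 9 by p in Large White replicates 1, 2 and 3 and 10, 11 and 7 in Ningxiang replicates 1, 2 and 3. The log10 p-values were -2610, -3140 and -2280 in Large White and -3020, -2030 and -3590 in Ningxiang, where list medians ranged from -11 to -9.395. The authors' fold enrichment was 2.9, 3.16 and 2.97 in Large White and 2.71, 2.63 and 3.32 in Ningxiang. These folds placed the peak between 28.5% and 45.6% of the way down a list ordered from the highest fold. Both values come from the authors' peak calling and place a peak within its list; they are not used to compare methylation between breeds. A p-value of this kind depends on the number of reads as well as on the ratio, and read numbers were not analysed here.

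ATP2A2 had a peak at 1 of 2 places, and no list had both. In Large White replicate 3 and Ningxiang replicate 1 it lay in exons 12 and 13 of 20, on chromosome 14 from 31734731 to 31735064 and to 31735034. In Large White replicate 1 and Ningxiang replicate 3 it lay in the 3′ untranslated region, from 31741287 to 31741407 and from 31741257 to 31741436, 329 to 358 bases from the gene's end. Large White replicate 2 and Ningxiang replicate 2 had none. Each place was thus listed in 1 Large White and 1 Ningxiang replicate. The 2 lists shared 210 exonic bases at the first place (92 of exon 12 and 118 of exon 13) and 121 bases at the second. Exonic bases under peaks were 121, 0 and 240 in Large White and 210, 0 and 180 in Ningxiang (exact permutation p = 1, n = 3 each). The fold was 1.61 and 1.63 in Large White replicates 1 and 3, and 1.61 and 1.91 in Ningxiang replicates 1 and 3, between 84.7% and 99.3% of the way down their lists. Log10 p was -113 in Large White replicate 3 and -49.4 in Ningxiang replicate 1 at the exonic place, and -11.5 in Large White replicate 1 and -14.9 in Ningxiang replicate 3 in the 3′ untranslated region.

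SLN, the inhibitor that binds the SERCA pumps in skeletal muscle, had 1 peak in every list, inside a single exon. On chromosome 9 of susScr11 its 5′ edge was at 36233599 in all 6 lists, 8806 bases from the 5′ end of the minus-strand gene. Its 3′ edge was at 36233306 in Large White replicates 1 and 2, and at 36233365 in Large White replicate 3 and in all 3 Ningxiang lists, which is 351 or 410 bases from the gene's 3′ end. The annotation calls this 3′ untranslated region. On PLN, also a minus-strand gene, overlapping peaks are classed as 3′ in Large White replicate 1 and as 5′ untranslated region in Large White replicate 3. Each peak has a single class, and the peak of Large White replicate 3 reaches further toward the 5′ end, so these classes need not conflict. Whether the classes of minus-strand genes are right was not tested, and they are not used further.

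The SLN peak covered 294, 294 and 235 bases in Large White and 235 in each Ningxiang list. Large White replicate 3 had the same value as the Ningxiang lists, so the breeds overlapped, and the 59 extra bases of Large White replicates 1 and 2 were under no Ningxiang peak. The mean was 274.3 ± 34.1 bases in Large White and 235 ± 0 in Ningxiang (SD, n = 3 each), a difference of 39.3 bases with an exact permutation p = 0.4 and an adjusted p of 1 over all genes. Without Large White replicate 3, the only list that made them overlap, the breeds were bound to separate. The difference was then 59 bases, with an exact permutation p of 0.1, the smallest possible, and an adjusted p of 0.856. The peak ranked 11, 8 and 12 by p in Large White and 11, 6 and 9 in Ningxiang. Its fold was 2.53, 2.53 and 2.28 in Large White and 1.98, 2.31 and 2.41 in Ningxiang, between 51.3% and 75.9% of the way down the lists by fold.

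SLN and ATP2A1 were 2 of only 8 genes with a peak among the 20 strongest by p in all 6 lists. The others were CKM, the muscle creatine kinase, MYH1, a fast myosin heavy chain, TNNT3, a fast troponin subunit, TPM1 and TPM2, the tropomyosins, and IGF2, a fetal growth factor. Folds of their top peaks ranged from 1.56 for TNNT3 to 4.84 for IGF2. No peak of the 8 calcium genes was among the 20 highest by fold in any list.

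**Figure D2:**
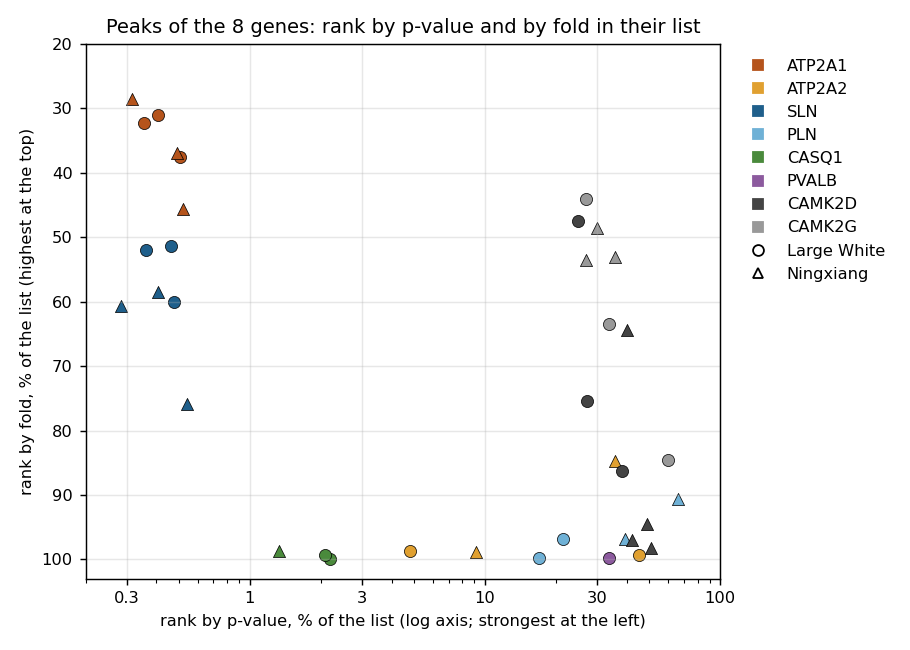
Each point is 1 of the 37 peaks, placed by its rank in its own list as a percent of list length: by p-value on the horizontal axis (log scale, strongest left) and by the authors' fold on the vertical axis (highest at the top). Circles are Large White and triangles Ningxiang; ATP2A1 and SLN lie left of 0.6% by p and in the middle by fold, and CASQ1 lies between 1.33% and 2.19% by p but beyond 98% by fold.

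PLN, the other small inhibitor, best known from heart and slow muscle, showed no site common to its lists. On chromosome 1 its peaks lay from 43449648 to 43449912 in Large White replicate 1 and from 43449765 to 43449941 in Large White replicate 3. In Ningxiang replicate 2 the peak lay nearer the 3′ end, from 43449383 to 43449530. In Ningxiang replicate 3 it joined the first 74 bases of the gene, 43458852 to 43458925, to 74 bases of the next exonic block, 43449941 to 43450014. Large White replicate 2 and Ningxiang replicate 1 had no PLN peak. The Large White lists shared 148 bases, the Ningxiang lists none, and 1 base was common to Large White replicate 3 and Ningxiang replicate 3. Exonic bases were 265, 0 and 177 in Large White and 0, 148 and 148 in Ningxiang (exact permutation p = 0.6, n = 3 each, adjusted p = 1). The fold was 1.67 and 1.58 in Large White replicates 1 and 3, and 1.81 and 1.7 in Ningxiang replicates 2 and 3. No base of PLN was under a peak in more than 2 lists, where 235 of the 294 bases of SLN were under a peak in all 6.

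CASQ1, which holds calcium in the store, had its peak toward the 5′ end of the gene, centred between 18.5% and 29.6% of the gene's length. The peak covered exons 2 and 3 of 11 in Large White replicates 1 and 3 and in Ningxiang replicate 2, on chromosome 4 within 90283462 to 90286967. It reached 3 bases of exon 1 in Large White replicate 3 and 20 bases of exon 4 in Ningxiang replicate 2. The 3 lists shared 120 of the 209 bases covered: 91 of exon 3, from 90283704 to 90283794, and 29 of exon 2. Exonic bases were 120, 0 and 179 in Large White and 0, 180 and 0 in Ningxiang (exact permutation p = 1, n = 3 each). The fold was 1.56 and 1.61 in Large White replicates 1 and 3 and 1.64 in Ningxiang replicate 2, where the lowest fold in any list was 1.53. Log10 p was -307 and -296 in Large White and -434 in Ningxiang, which put the peak at rank 52 and 53 in Large White and rank 28 in Ningxiang. CASQ1 therefore combined a rank by p in the first 2.19% of a list with a rank by fold beyond 98.6% of it.

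PVALB had 1 peak in 1 list, Large White replicate 3. It lay in exons 2 and 3 of 4, on chromosome 5 from 10957780 to 10959170, over 119 exonic bases, with a fold of 1.57 and a log10 p of -16.8. That list is the longest of the 6, and it is the only one with a peak on all 8 genes. Large White values were 0, 0 and 119 and Ningxiang values 0, 0 and 0 (exact permutation p = 1).

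**Figure D3:**
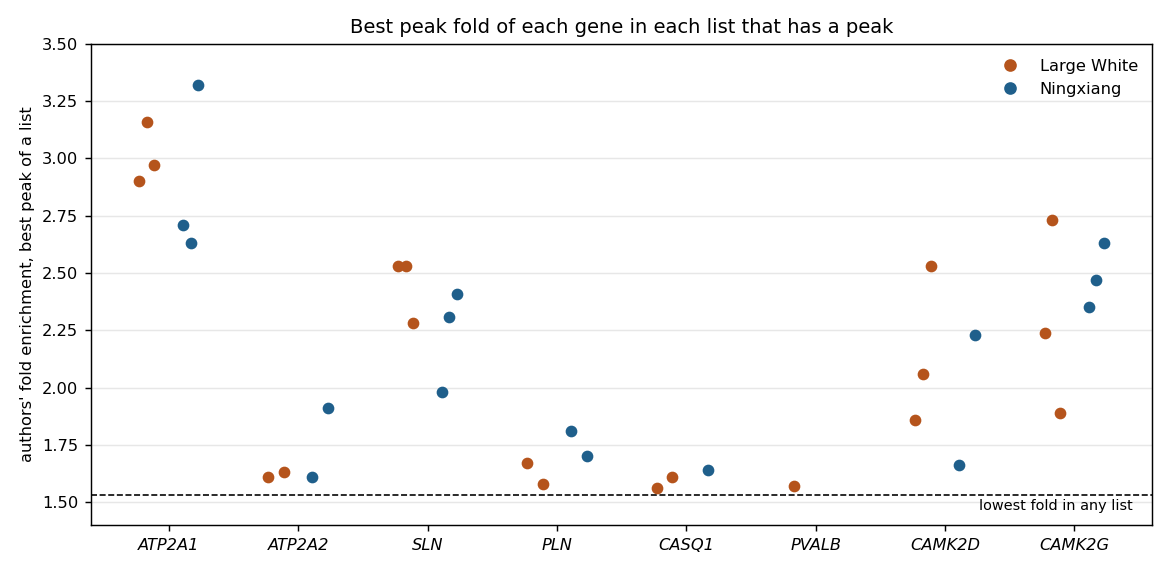
The authors' fold of the best peak of each gene, 1 point for each list that has a peak (Large White in brown, left; Ningxiang in blue, right), on a linear axis that does not begin at 0. ATP2A2, PLN, CASQ1 and PVALB stay between 1.56 and 1.91, near the dashed line at 1.53 that marks the lowest fold in any list, ATP2A1, SLN and CAMK2G lie between 1.89 and 3.32, and CAMK2D spans 1.66 to 2.53.

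Most peaks of the kinases strung together short exons over long introns, in 4 to 8 exonic blocks, where peaks of the pumps and inhibitors had up to 3. The split was not clean. CAMK2D in Ningxiang replicate 2 also had peaks of 1 and 2 blocks, and the PLN peak of Ningxiang replicate 3 crossed a long intron. Both kinase transcripts are known to be spliced in many forms around the linker between the catalytic and the hub domain. CAMK2G had 1 peak in every list, of 5 to 8 exonic blocks, on chromosome 14 within 76539865 to 76562609. Exons 14 to 17 of 21 were under a peak in all 6 lists, and exons 13 and 18 in 5. Of exon 18, 33 bases were covered in Large White replicates 2 and 3. In Large White replicate 1 and Ningxiang replicates 2 and 3 only 3 bases of it were covered. Blocks of 45 bases on exon 16, from 76545332 to 76545376, and of 69 bases on exon 15, from 76546534 to 76546602, were identical in all lists. Both are inner blocks of the peak, so exon borders fixed their edges and the identity adds nothing on the site. The peak spanned 16605 to 22715 bases of the genome for 208 to 386 exonic bases.

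Exonic bases under the CAMK2G peak were 208, 268 and 268 in Large White and 237, 238 and 386 in Ningxiang. Ningxiang replicate 3 stood highest, and its peak alone reached exons 11 and 12; the other values overlapped. The mean was 248 ± 34.6 bases in Large White and 287 ± 85.7 in Ningxiang (SD, n = 3 each), a difference of -39 (exact permutation p = 0.8, adjusted p = 1). The fold was 2.24, 2.73 and 1.89 in Large White and 2.35, 2.47 and 2.63 in Ningxiang. Large White replicate 3, with the lowest fold, also had the weakest log10 p, -8.63; the other lists had -20.1 to -14.7.

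CAMK2D had peaks in all Large White lists and in Ningxiang replicates 1 and 2, on chromosome 8 within 109165535 to 109221313. In Ningxiang replicate 2 there were 3 separate peaks, in exons 10 and 11, in exons 13 to 16 and in the 3′ untranslated region, where the other lists had 1 peak or none. Exon 14 of 20, 49 bases from 109181231 to 109181279, lay under a peak in each of the 5 lists, and exons 13 and 15 did so at least in part. The 179 bases at the 3′ end of the gene, from 109221135 to 109221313, were under a peak in Ningxiang replicate 2 alone. Exonic bases were 149, 446 and 268 in Large White and 120, 477 and 0 in Ningxiang, the widest scatter of the 8 genes. The mean was 287.7 ± 149.5 in Large White and 199 ± 248.1 in Ningxiang (SD, n = 3 each), a difference of 88.7 bases (exact permutation p = 0.7, adjusted p = 1). The best fold was 1.86, 2.06 and 2.53 in Large White and 1.66 and 2.23 in Ningxiang replicates 1 and 2.

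**Figure D4:**
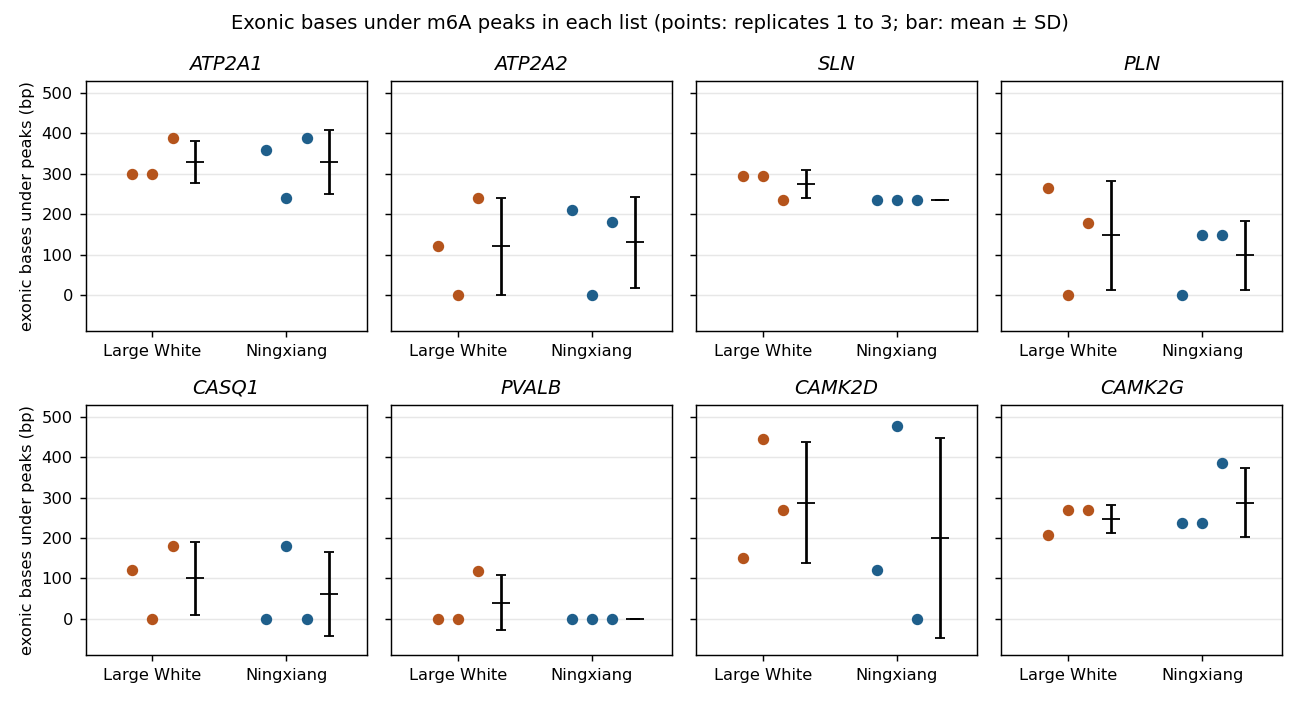
Exonic bases under the peaks of each gene (vertical axis, bp) in each list, with Large White left of Ningxiang in each panel, points for replicates 1 to 3 and a bar for the mean ± SD. A list without a peak is drawn at 0. The breeds overlap in all 8 panels.

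None of the 8 genes had Large White and Ningxiang values of exonic bases that did not overlap. Over all 2159 genes, 7.78% had their 3 Large White values above their 3 Ningxiang values and 2.92% the reverse, 231 genes or 10.7% in all. With 3 lists against 3, an exact permutation test cannot give a two-sided p under 0.1, so no gene could pass 0.05 even unadjusted. The 8 genes had exact p-values of 0.4 to 1 and adjusted p-values of 1 (Benjamini-Hochberg over all genes). Their median difference, Large White minus Ningxiang, was 39.5 bases, against 39.7 bases over all genes.

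At the level of sites, the 8 genes held 33 exonic regions of at least 30 bases, each covered by one set of lists throughout. Of these, 6 were under a peak in all 6 lists (18.2%, against 7.76% of the 15837 such regions of all genes): 3 in CAMK2G, 2 in ATP2A1 and 1 in SLN. A further 13 regions were in 1 list only (39.4%, against 35.3% over all genes). None of the 33 was in 3 of 3 lists of 1 breed and 0 of 3 of the other, where 1.97% of all regions were so for Large White and 0.726% for Ningxiang. In 2 of 3 Large White lists and no Ningxiang list were 4 of the 33 regions (12.1%, against 6.56% of all regions), and 0 had the reverse pattern (against 3.84%). These were 59 bases of SLN in Large White replicates 1 and 2, 148 of PLN in Large White replicates 1 and 3, and 36 of CAMK2D and 30 of CAMK2G in Large White replicates 2 and 3. Regions of 1 gene share peaks and are not separate observations.

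Across their 37 peaks, which repeat the same genes across lists, 20 (54.1%) were centred within the final 10% of their gene, against 35.5% of all peaks. A centre is the midpoint of a peak's genomic span, introns included, and not a place along the mRNA. The 20 were all 6 peaks of ATP2A1, all 6 of SLN, 3 of 4 of PLN, 2 of 4 of ATP2A2 and 3 of 7 of CAMK2D. The CAMK2D peaks within the final 10% include those in exons 11 to 16 (Large White replicate 3) and 13 to 16 (Ningxiang replicate 2) of 20. Peaks of CASQ1 and PVALB were centred in the first 30%. A splice junction was crossed by 25 of the 37 (67.6%, against 56.5% of all peaks), including every peak of ATP2A1, CASQ1, PVALB and CAMK2G and none of SLN. The median fold was 2.06, against 2.53 over all peaks, and the median log10 p was -25.2, against -10. In the lowest 5% of their list by fold were 12 of the 37 peaks: 3 each of ATP2A2, PLN and CASQ1, 2 of CAMK2D and 1 of PVALB. The 4 genes listed in 1 to 4 lists had best folds of 1.56 to 1.91, and the 3 listed in all 6 had 1.89 to 3.32. CAMK2D, in 5 lists, had 1.66 to 2.53, which overlaps both ranges. Whether fold goes with the number of lists over all genes was not tested.

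ATP2A1 had the most exonic bases under peaks of the 8 genes, averaged over the lists. It was set against 767 genes with a peak in all 6 lists and values that vary. Those whose exonic bases followed ATP2A1 most closely were PLAT, the tissue plasminogen activator (Pearson r = 0.956, n = 6 lists), PNRC2, a nuclear receptor coactivator (r = 0.948), and NCOA1, another one (r = 0.933). PLAT had 417, 417 and 565 bases in Large White and 447, 328 and 564 in Ningxiang. As with ATP2A1, Ningxiang replicate 2 was lowest and Large White replicate 3 and Ningxiang replicate 3 highest. These points share their lists and whatever sets peak length in each, so the coefficients are a description.

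Other genes of calcium handling were taken from a list, and 53 of them are reported. A curated transcript was present for 15, and 12 had a peak. A peak was present in all 6 lists for 9 of the 12. At the store these were RYR1, the calcium release channel, with 5 to 9 peaks a list, and FKBP1A, a small protein bound to that channel, with 1. At the cell surface they were CACNA2D1, an auxiliary subunit of voltage-gated calcium channels, ATP2B1, a calcium pump of the plasma membrane, and ORAI1, the channel opened when stores run low. STIM1, the store sensor that opens ORAI1, CALM3, 1 of the genes for calmodulin, and NFATC1 and NFATC2, transcription factors switched on by calcineurin, completed the 9. MRLN, which in mouse encodes another small SERCA inhibitor, CACNG1 and TMEM38B have a curated transcript and had no peak in any list; they are named after their values were seen.

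Of these 12 genes, 1 had more exonic bases in every Large White list than in any Ningxiang list (background 7.78%) and 1 the reverse (background 2.92%). ATP2B1 had 928, 1079 and 599 bases in Large White and 570, 570 and 330 in Ningxiang, with groups that just do not overlap. NFATC1 had 601, 1022 and 570 in Large White and 1109, 1260 and 1499 in Ningxiang. Both had an exact permutation p of 0.1, the smallest possible with n = 3 per breed, and an adjusted p of 0.935, so neither passed the test. None of the 12 had peaks in all lists of 1 breed and none of the other.

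**Figure D5:**
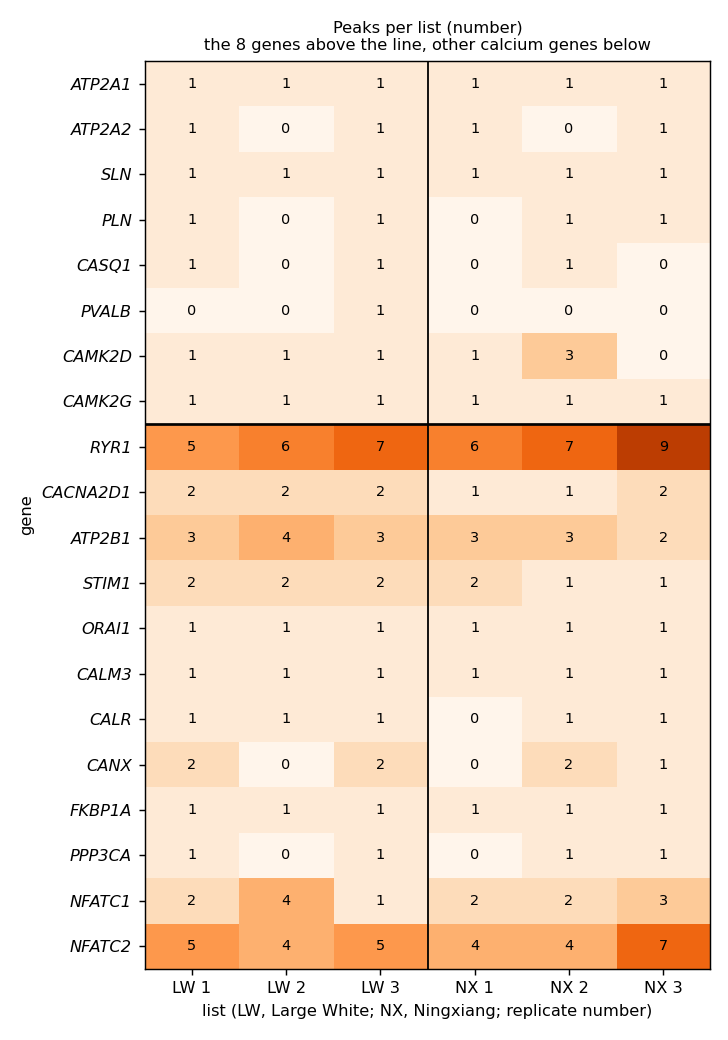
Number of peaks in each list (columns, Large White left of Ningxiang) for the 8 genes above the black line and for the 12 other calcium genes with a peak below it; darker cells hold more peaks. RYR1 has 5 to 9 peaks in every list, while ATP2A1, SLN and CAMK2G have 1 in each.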

How the data were processed

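The study's 12 samples are an immunoprecipitated and an input sample for each of 3 replicates per breed, and 6 peak lists were analysed, 1 per replicate and none pooled. Each list was taken for the immunoprecipitated sample whose description names it. Per the submitters' processing notes, FastQC 0.11.9, ChIPseeker 1.30.2 and HOMER were used with susScr11. For the aligner and peak caller, a name is not given in the sources used here. Per the file headers, each deposited peak has exonic blocks, a p-value, its log10 (a score without fixed range) and a linear fold ratio; the deposited width is the genomic span, with other columns for annotation. The weakest p-value was 0.0087. Starts count from 0 in the files and are printed after adding 1. Exon numbers of minus-strand genes run along the chromosome and were turned round to count from the 5′ end; blocks of a peak were counted as consecutive exons.

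Exonic bases under a gene's peaks were summed without double counting in each list, 0 where there was no peak. Differences are Large White minus Ningxiang, tested per gene with an exact two-sided permutation test over the 20 splits of 6 lists and adjusted over 2159 genes. The procedure was run on simulated data with 100 genes planted in each direction. All were found, as was certain with values set above all others. In all, 162 genes were called with Large White higher and 144 with Ningxiang higher, so unplanted genes were called too. That run checks the code and not the rate of false calls. Regions under 30 bases were left out of region counts. All 8 genes, calcium genes in all 6 lists or with groups apart, and the 3 genes closest to ATP2A1 were named. The 8 genes, the lists and the tests were chosen with earlier results of these data known. All 8 gene IDs matched RefSeq names on Sscrofa11.1, which also gave curated transcripts. Alternatives were stronger peaks only, equal list length, genomic spans, a replicate block, a stricter overlap and leaving out each list. Python 3.11.15, pandas 2.3.3, NumPy 2.4.6, SciPy 1.17.1 and Matplotlib 3.10.9 were used. Of the calcium genes, 2 are not reported here and are left out of that list's counts. Sequences and input reads were not analysed here.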

Additional observations from a re-analysis of the deposited data

How the results depend on the processing

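No setting could give an exact permutation p under 0.1, so the p-values say nothing about stability. The lowest for the 8 genes was 0.1, for SLN without Large White replicate 3, where the breeds no longer overlapped (59 bases). That list alone had made them overlap, so the separation was fixed by leaving it out. Of 80 recomputed differences 12 changed sign, all of them for ATP2A1, ATP2A2, PLN, CAMK2D or CAMK2G; those of SLN, CASQ1 and PVALB did not, but without Large White replicate 3 CASQ1 and PVALB had a difference of 0. With genomic spans the PLN difference turned to -2897 bases, since the Ningxiang replicate 3 peak crosses a long intron; in every other reversal 1 list was left out. Leaving out 1 list gave -45 to 29.5 bases for ATP2A1, -74.7 to 50.5 for ATP2A2, -10.2 to 122.3 for PLN, -10.8 to 227.7 for CAMK2D, -64 to 10.5 for CAMK2G, 29.5 to 59 for SLN, 0 to 99.7 for CASQ1 and 0 to 59.5 for PVALB. The difference in genes with a peak per list ranged from 0.167 to 2.17.

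Over all genes, those with Large White above Ningxiang throughout numbered 168 and the reverse 63. When only the stronger 50% of peaks were kept they were 102 and 26, and with 1 list left out, which makes the rule easier to meet, 223 to 328 and 89 to 145. Genes listed in 1 breed only were 29 for Large White and 16 for Ningxiang. They were 24 and 9 with the stronger 50%. At equal list length they were 23 and 28, so that the larger count was Ningxiang's; with 1 list left out the counts were 44 to 69 and 22 to 41. Of the 37 peaks, 34 were in the stronger 50% of their list and all 37 remained at equal list length. Regions of the 8 genes in 1 breed only numbered 0 for Ningxiang throughout, and 0 to 2 for Large White with 1 list left out: 2 without Large White replicate 1, and 1 each without Large White replicate 2, Large White replicate 3 or Ningxiang replicate 3. Of all regions, 3.01% to 4.65% were then in Large White only and 1.25% to 2.37% in Ningxiang only.

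With the replicate block, genes with all 3 differences in 1 direction numbered 286 and 124, and the 8 genes had exact p-values of 0.5 to 1, where 0.25 is the smallest possible. Deviations of same-numbered lists correlated at 0.0425, 0.0506 and 0.0222, and those of unlike-numbered lists at -0.0945 to 0.0514. Large White replicates 1 and 2 correlated best with the Ningxiang list of the same number. Large White replicate 3 correlated best with Ningxiang replicate 1. These values do not settle whether the numbers are pairs, so results are given both ways, with the unpaired test as the main one. Unknown depth limits every absence of a peak.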
